A study of Mus musculus with 75 samples.

Results

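Proteasome genes were followed in whole mouse kidneys 3 days after unilateral ureteral obstruction (UUO), a model in which ligation of 1 ureter injures the kidney above it while the contralateral (CL) kidney is left unobstructed. The members were chosen by symbol alone: every row of the count table that starts with Psma, Psmb, Psmc, Psmd, Psme, or Psmf followed by a digit, leaving out the immunoproteasome genes Psmb8 and Psmb9 and symbols of pseudogenes. This gave 44 genes of the 32245 in the table, 17 of the core particle (Psma1 to Psma8, Psmb1 to Psmb7, Psmb10, and Psmb11) and 27 of the regulatory particles (Psmc1 to Psmc6, Psmc3ip, Psmd1 to Psmd14, Psme1, Psme2, Psme2b, Psme3, Psme4, and Psmf1). Psmc3ip is a member by its symbol only, as it encodes a meiotic recombination protein named after an ATPase it binds.

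The proteasome degrades proteins that carry ubiquitin chains. Its core particle is a barrel of α rings (Psma genes) and β rings (Psmb genes), and the proteolytic sites lie in the β subunits encoded by Psmb5, Psmb6, and Psmb7. In immune cells, and in other cells exposed to interferon, these subunits are replaced by the immunoproteasome subunits that Psmb8, Psmb9, and Psmb10 encode. The 19S regulatory particle, with an ATPase base (Psmc genes and some Psmd genes) and a lid (other Psmd genes), binds ubiquitin chains and unfolds the substrate, while the activators encoded by Psme1 and Psme2 (11S), Psme3, and Psme4 open the barrel without ubiquitin, and Psmf1 encodes an inhibitor. In the kidney this machinery serves protein turnover in tubular cells and, in its immune form, antigen presentation.

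The study comprised 75 libraries in 12 groups and 3 arms, all from adult mice of both sexes, with 1 library per kidney. In the ABTAA arm, C57BL6/J or WT mice received ABTAA, an antibody that binds angiopoietin-2 and activates TIE2, or human IgG Fc as control, with 8 libraries from each kidney of the IgG group and 7 from each kidney of the ABTAA group. In the Veptp arm, VeptpiECKO mice lose Veptp through a tamoxifen-inducible Cdh5-CreERT2, which is active in endothelial cells, while the VeptpWT controls were Veptp wt/lox littermates that carry the same Cre and received no tamoxifen, so that tamoxifen and genotype cannot be told apart; the groups held 7 VeptpWT CL, 8 VeptpWT UUO, 6 VeptpiECKO CL, and 8 VeptpiECKO UUO libraries. In the Pdgfb arm, with 4 libraries a group, mice labelled PdgfbiKO carry floxed Pdgfb and a tamoxifen-inducible Actb-CreERT2 active in the whole body, and the PdgfbWT controls were Cre-negative wt/lox or lox/lox littermates; kidneys of 2 sham-operated mice are among the PdgfbWT CL libraries, and the labels do not mark which. The background was mixed in both knockout arms.

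Depth ran from 172827 to 2341800 counts a library, with a median of 757897, and the members took 0.483% to 0.956% of the counts. Ptprb, which encodes VE-PTP, averaged 53.9 ± 21.4 CPM (counts relative to the scaled library total; SD, n = 7) in VeptpWT CL and 34.1 ± 6.38 (n = 6) in VeptpiECKO CL kidneys, and 51.2 ± 27.9 and 33.3 ± 18.9 (n = 8 each) in the UUO kidneys, with overlap in both. Pdgfb averaged 10.4 ± 6.72 CPM (n = 4) in PdgfbWT CL and 19.0 ± 3.98 (n = 4) in CL libraries labelled PdgfbiKO, against the direction of the label, and 52.9 ± 6.63 and 37.1 ± 3.15 in the UUO libraries, so these libraries are called libraries labelled PdgfbiKO. The CL values rest on 4 to 19 and 7 to 17 counts a library. The UUO values did not overlap, at 43.2 to 57.8 CPM in PdgfbWT and 33.4 to 40.6 CPM in libraries labelled PdgfbiKO. None of these differences in Ptprb or Pdgfb passed the test. The paper reports that Pdgfb expression was reduced in both the obstructed and the contralateral kidneys of its Pdgfb-knockout mice. Library names come in 2 forms, 45 plain (a letter and a number) and 30 low-line names (with _ between them). The ABTAA and Veptp groups each hold both forms, the Pdgfb groups plain names alone, and the labels do not say what the form stands for. In the Veptp arm all 16 low-line libraries held more counts (960000 to 2342000) than any of the 13 plain ones (178100 to 858600), and members differ between the forms. Kidney markers were high in every group, as the summed level of 10 of them ran from 8441 to 14120 CPM in CL and from 3374 to 10140 CPM in UUO libraries.

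Levels below are CPM scaled within each arm by TMM factors, which makes them comparable within an arm only. Each response is a log2 fold change ± SE from edgeR's quasi-likelihood test, and a gene is said to have risen, fallen, or differed when its Benjamini-Hochberg adjusted p over all genes tested in the arm was under 0.05. Of the 44 members, 42 passed the filter on low counts in each arm. The others were core genes of other tissues: Psma8, the α subunit of germ cells, had 26 counts over 21 libraries, and Psmb11, the thymus subunit, had 4 counts over 4 libraries.

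In IgG-treated mice UUO raised 6 of the 42 members tested and lowered 1, while 16% of all genes tested rose and 18.4% fell. The core particle had 2 members that rose, Psmb10 and Psma5, and the regulatory particles had 4, Psme1, Psme2, Psme2b, and Psmd10, with a fall of Psme4. Without TMM factors 5 core and 8 regulatory members rose and none fell, while 25% of all genes rose and 11.7% fell. The median response was 0.09 for the core and 0.08 for the regulatory members, beside 0.014 over all genes. The regulatory median was -0.05 in low-line names alone and 0.29 in plain names alone, so its sign depended on the form of the name. Thus 35 members, among them the 6 ATPase genes and the constitutive catalytic genes Psmb5, Psmb6, and Psmb7, did not pass the test.

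**Figure D1:**
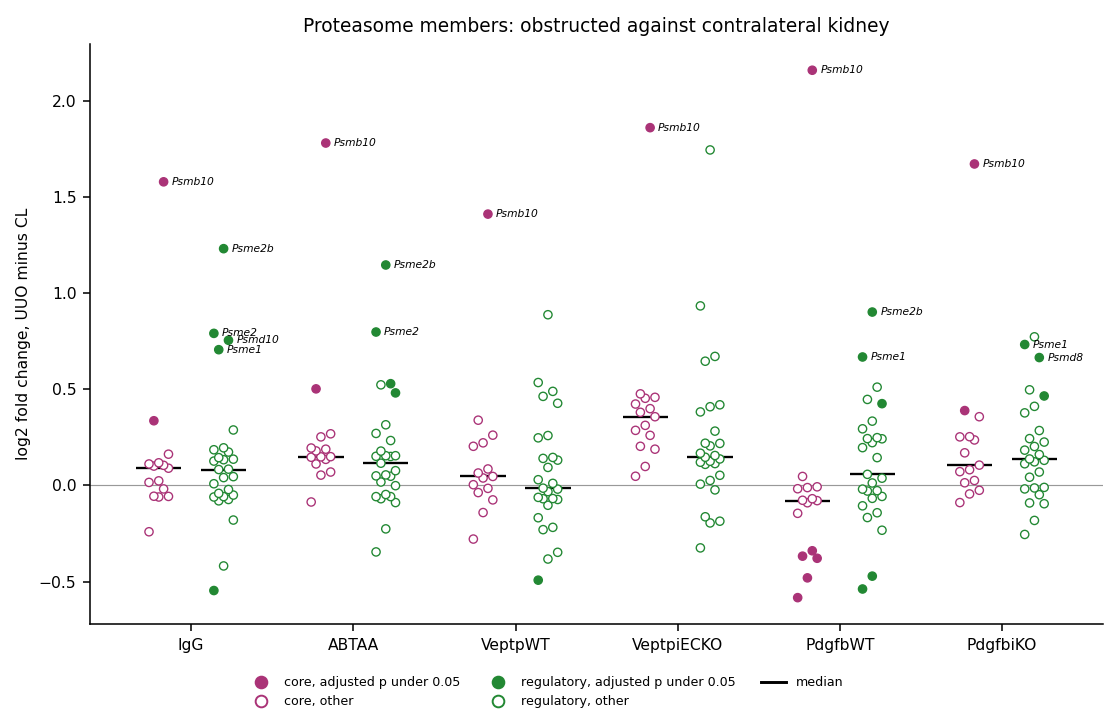
Each point is 1 member, plotted by its log2 fold change between UUO and CL kidneys (vertical axis) in the 6 kinds of mice (horizontal axis), core members on the left and regulatory members on the right of each pair, filled where the adjusted p was under 0.05, with a bar at the median. Psmb10 stands above all other members in each of the 6 comparisons, from 1.41 in VeptpWT to 2.16 in PdgfbWT mice, and most other members lie near 0.

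Psmb10 encodes the inducible β subunit that takes the place of the Psmb7 product in the immunoproteasome, and it was the member with the largest response to UUO in every kind of mouse over both forms of name. Psme2b exceeded Psmb10 in low-line names alone in IgG-treated mice (1.92 against 1.84) and in plain names alone in VeptpiECKO mice (1.81 against 1.24). The level of Psmb10 in IgG-treated mice had a lowest, median, and highest value of 11.4, 18.0, and 44.4 CPM in CL kidneys and 48.2, 65.7, and 75.3 CPM in UUO kidneys, so that every obstructed kidney lay above every contralateral one. The response was 1.58 ± 0.21 on the log2 scale, with an edgeR quasi-likelihood adjusted p of 2.93e-07. In ABTAA-treated mice the values were 7.88, 14.8, and 26.8 CPM in CL and 47.5, 58.2, and 68.6 CPM in UUO kidneys, again without overlap, and the response was 1.78 ± 0.22. ABTAA and IgG UUO kidneys differed by -0.07 ± 0.20 and their responses by 0.20 ± 0.30, neither of which passed the test. In IgG-treated mice every UUO library lay above every CL library for 4 members and 4.28% of all genes tested. In ABTAA-treated mice this held for 1 member and 3.99% of all genes.

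The Veptp arm showed the same rise over a wider spread. In VeptpWT mice Psmb10 stood at 7.98, 20.2, and 33.6 CPM (lowest, median, highest) in CL and at 24.2, 57.3, and 71.1 CPM in UUO kidneys, which overlap, with a response of 1.41 ± 0.31. Within each form of the name they did not overlap, since plain libraries had 23.6 to 33.6 CPM in CL and 64.5 to 71.1 CPM in UUO kidneys, and low-line libraries had 7.98 to 20.2 and 24.2 to 50.2 CPM. In VeptpiECKO mice the values were 6.32, 19.3, and 27.1 CPM in CL and 51.4, 57.8, and 67.5 CPM in UUO kidneys, which do not overlap, with a response of 1.86 ± 0.34. Within plain names alone, where VeptpiECKO CL holds 2 libraries, that response was 1.24 and did not pass the test (edgeR adjusted p = 0.532). Of all genes tested, 0.697% had every UUO library above every CL library in VeptpiECKO mice.

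In the Pdgfb arm, whose libraries all have plain names, Psmb10 was at 11.1, 25.1, 14.8, and 23.0 CPM in CL kidneys of PdgfbWT mice, and their UUO kidneys had 79.7, 85.8, 77.0, and 91.1 CPM. Libraries labelled PdgfbiKO gave 16.6, 5.00, 18.1, and 25.9 CPM in CL and 26.7, 76.2, 49.5, and 65.6 CPM in UUO kidneys. Each UUO library lay above each CL library of its genotype, though replicate 1 of the UUO libraries labelled PdgfbiKO, the shallowest of the arm with 337545 counts, was only just above the highest CL library. The same held for 16.9% of all genes tested in PdgfbWT and 6.2% in labelled PdgfbiKO libraries. Responses of Psmb10 were 2.16 ± 0.26 and 1.67 ± 0.29 (edgeR adjusted p = 3.8e-07 and 0.000738). The level in UUO kidneys labelled PdgfbiKO was below that in PdgfbWT by 0.52 ± 0.22 on the log2 scale, with an edgeR adjusted p of 0.11, and without TMM scaling this difference was -0.77 and passed the test.

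**Figure D2:**
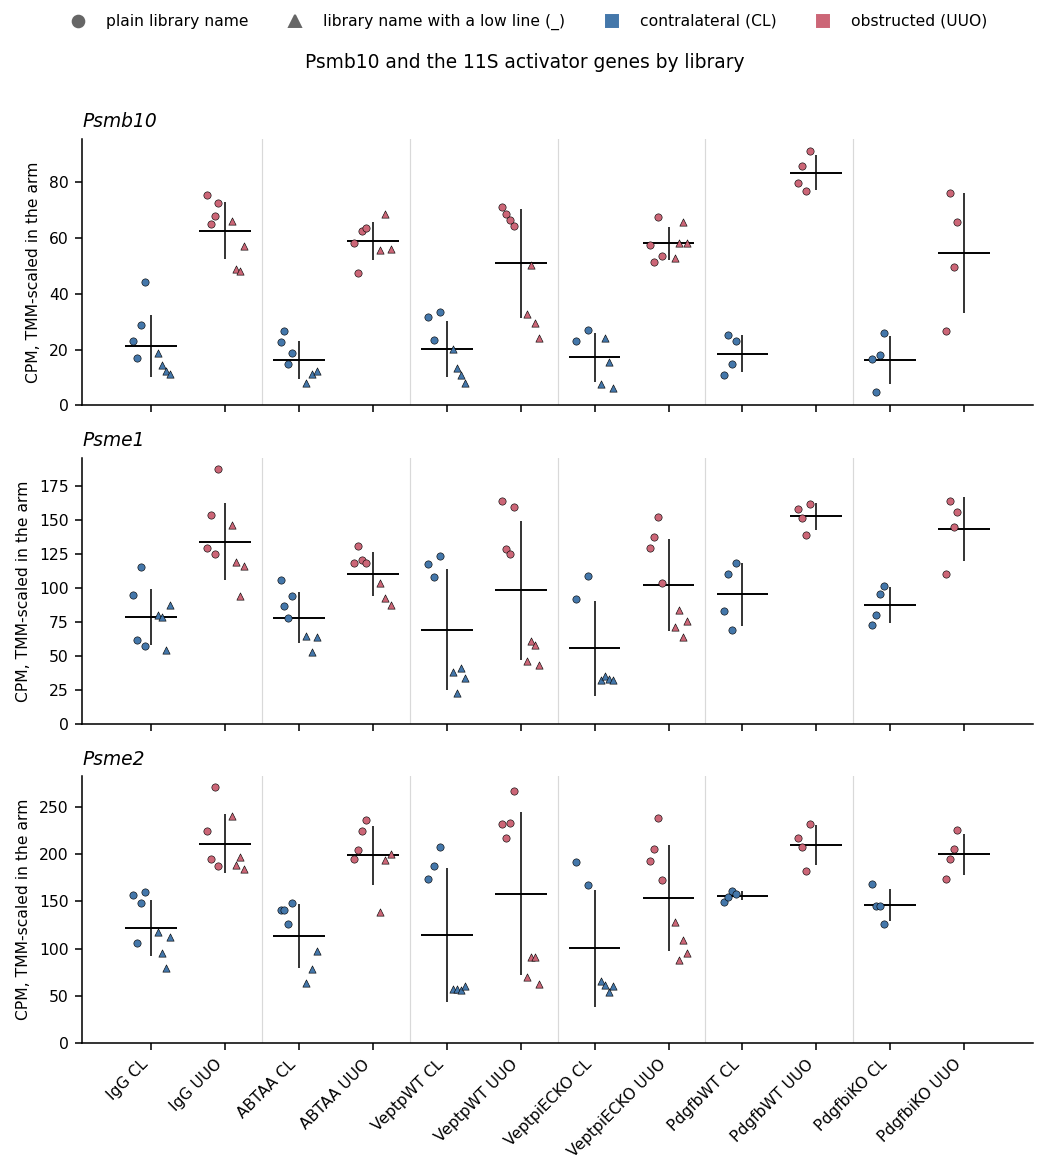
Levels of Psmb10, Psme1, and Psme2 (vertical axes, CPM, TMM-scaled within the arm) in each of the 75 libraries by group (horizontal axis), with circles for plain and triangles for low-line library names, blue for CL and red for UUO, a horizontal bar at the mean and a vertical bar of ± 1 SD. Psmb10 is higher in UUO than in CL kidneys in all 6 pairs of groups, and in the Veptp arm the triangles of Psme1 and Psme2 lie below the circles in both kidneys.

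Psmb8 and Psmb9, the other immunoproteasome subunits, which the choice of members left out, had responses of 1.79 and 1.52 in IgG-treated mice, and both rose there, in ABTAA-treated mice (1.31 and 1.23), and in the PdgfbWT (1.73 and 1.67) and labelled PdgfbiKO (1.68 and 1.49) libraries. Psmb8 rose in VeptpWT (1.99) and VeptpiECKO (2.00) mice, while Psmb9, at 1.19 and 1.64, did not pass the test.

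Markers of leukocytes and interferon response moved with Psmb10. In IgG-treated mice all 7 of the leukocyte markers tested rose, and their summed level went from 113 to 207 CPM in CL kidneys to 395 to 925 CPM in UUO kidneys. The T-cell marker Cd3e and the B-cell marker Ms4a1 were too low to test, with Ms4a1 under 1 count a library on average. Of 9 interferon-response genes 7 rose, and the list went from 127 to 259 CPM in CL to 237 to 579 CPM in UUO kidneys. All 4 fibroblast markers rose as well, and 8 of 10 kidney markers fell. The part of these cells in the rise of Psmb10 was not tested, and in whole-kidney RNA more cells of a type and more RNA per cell cannot be told apart.

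The promoters of Psmb10, Psme2, and the constitutive catalytic genes Psmb5 and Psmb6 are shown, so that 2 genes of the immune form can be read beside 2 that it leaves out, as read from RefSeq (GRCm38.p6), which had an entry of 250 bases before to 50 after the start for 37 of the 44 members, Psmb7 not among them. Each stretch below is 150 bases, 5′ to 3′ on the gene's strand, and ends just before the first annotated transcript base. Capitals mark a match to TGACNNNGC, the antioxidant response element core, in Psmb5 and Psmb6, and to the GC box GGGCGG, here read on the opposite strand as CCGCCC, in Psme2. Psmb10 held none of the motifs searched.
Psmb10, chr8:105938445-105938594, minus strand: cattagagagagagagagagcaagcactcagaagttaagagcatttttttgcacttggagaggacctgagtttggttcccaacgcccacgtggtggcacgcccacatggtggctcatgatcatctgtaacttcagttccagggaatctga
Psme2, chr14:55591114-55591263, minus strand: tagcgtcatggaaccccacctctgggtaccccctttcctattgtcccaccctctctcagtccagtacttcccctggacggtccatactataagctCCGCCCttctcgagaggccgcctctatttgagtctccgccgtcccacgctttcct
Psmb5, chr14:54618023-54618172, minus strand: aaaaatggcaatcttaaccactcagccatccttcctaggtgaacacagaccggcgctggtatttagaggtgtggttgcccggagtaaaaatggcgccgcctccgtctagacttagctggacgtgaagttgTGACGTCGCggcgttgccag
Psmb6, chr11:70525207-70525356, plus strand: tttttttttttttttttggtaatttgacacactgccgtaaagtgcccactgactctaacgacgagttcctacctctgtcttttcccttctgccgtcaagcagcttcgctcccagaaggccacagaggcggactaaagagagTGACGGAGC

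Both strands of the whole entries were searched. The antioxidant response element core, the motif of the factors NFE2L1 and NFE2L2, was in 6 of the 37 members (16.2%; Psmb5, Psmb6, Psmc6, Psmd9, Psmd12, and Psme4) and in 14.0% of all 27025 genes with an entry, and in Psmd9 it overlaps a GC box. The GC box was in 21 members (56.8%) and in 38.2% of all genes. The interferon-stimulated response element core (GAAA, any 2 bases, GAAA) was in 4 members (10.8%; Psmb3, Psmd4, Psmd9, and Psme1) and in 4.0% of genes, and the gamma-activated site core TTCNNNGAA was in Psmd2 alone (2.7%) and in 9.6% of genes. These are matches of letters only.

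The activator genes Psme1 and Psme2, which lie near each other on chromosome 14 (Psme1 at 55578123 to 55581529, plus strand, and Psme2 at 55587441 to 55591113, minus strand, mm10), encode the 2 subunits of the 11S cap that is paired with the immunoproteasome. In IgG-treated mice Psme1 stood at 54.5, 79.4, and 115 CPM (lowest, median, highest) in CL and at 94.2, 127, and 187 CPM in UUO kidneys, which overlap slightly, with a response of 0.71 ± 0.16 (edgeR adjusted p = 0.000519). Psme2 stood at 79.3, 115, and 160 CPM in CL and at 185, 196, and 271 CPM in UUO kidneys, with no overlap (4.28% of all genes tested lay wholly above) and a response of 0.79 ± 0.16 (edgeR adjusted p = 0.000172). Both rose in ABTAA-treated mice too, by 0.48 ± 0.17 and 0.80 ± 0.17. The rise of Psme1 there was the less stable, since leaving out any 1 of 7 libraries (ABTAA CL replicates 5, 6, and 7 and ABTAA UUO replicates 1, 2, 3, and 4) lost the call, with values of 0.40 to 0.46, as did plain names alone (0.44, edgeR adjusted p = 0.14).

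In the Pdgfb arm each of the 4 UUO libraries was above each CL library of its own genotype for Psme1 and Psme2. So were 16.9% of all genes tested in PdgfbWT and 6.2% in labelled PdgfbiKO libraries. Psme1 had 83.1, 110, 69.3, and 118 CPM in PdgfbWT CL and 158, 151, 139, and 162 CPM in PdgfbWT UUO libraries, a response of 0.67 ± 0.16. Libraries labelled PdgfbiKO had 72.9, 80.0, 95.3, and 102 CPM in CL and 110, 164, 144, and 156 CPM in UUO kidneys, a response of 0.73 ± 0.17. Psme2 rose by 0.43 ± 0.12 and 0.47 ± 0.13, the latter lost on leaving out any 1 of 6 of the 8 libraries (CL replicates 2, 3, and 4 and UUO replicates 2, 3, and 4 of those labelled PdgfbiKO, 0.39 to 0.48).

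Psme1 and Psme2 did not pass the test in the Veptp arm, with responses of 0.54 ± 0.38 and 0.49 ± 0.38 in VeptpWT and 0.94 ± 0.41 and 0.65 ± 0.41 in VeptpiECKO mice, over levels that split by the form of the name. Psme2 was at 174 to 207 CPM in plain and 56.5 to 60.4 CPM in low-line VeptpWT CL libraries, and at 217 to 267 and 62.6 to 91.6 CPM in the VeptpWT UUO libraries. With the form as a covariate the responses were 0.49 and 0.41 in VeptpWT and 0.87 and 0.55 in VeptpiECKO mice, and all 4 passed the test.

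Psme2b, on chromosome 11, is a copy that shares 68.7% of its 50-base stretches with Psme2, so that reads can be assigned to either gene and their values are not independent. It rose in IgG-treated (1.23 ± 0.31), ABTAA-treated (1.15 ± 0.32), and PdgfbWT (0.90 ± 0.21) mice, from 14.5 ± 8.63 to 35.4 ± 7.90 CPM (SD, n = 8 each) in IgG-treated mice. Its largest response, 1.75 ± 0.57 in VeptpiECKO mice, did not pass (edgeR adjusted p = 0.0554) but passed with DESeq2 (1.79, adjusted p = 0.0274), and those in VeptpWT (0.89 ± 0.50) and labelled PdgfbiKO (0.77 ± 0.24) mice did not pass either. The rise in IgG-treated mice was 1.92 among low-line names and 0.73 among plain names, where it did not pass the test (edgeR adjusted p = 0.116).

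The other activators gave no rise that passed the test. Psme3, whose product caps proteasomes of the nucleus, did not pass the test in any kind of mouse, with responses between -0.16 and 0.34. Psme4, which encodes the large activator PA200, fell by 0.55 ± 0.15 in IgG-treated and by 0.47 ± 0.14 in PdgfbWT mice, and was at -0.35, -0.23, -0.20, and -0.26 in ABTAA-treated, VeptpWT, VeptpiECKO, and labelled PdgfbiKO mice, which did not pass. Its level in IgG-treated mice was 136, 163, and 213 CPM (lowest, median, highest) in CL and 54.3, 111, and 163 CPM in UUO kidneys, so the groups overlapped. Neither fall passed the test without TMM scaling (-0.33 and -0.12), and the fall in IgG-treated mice did not pass within plain names (-0.37).

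The inhibitor gene Psmf1 did not pass the test in any kind of mouse, with responses between -0.02 and 0.51. Its level in IgG-treated mice was 11.5, 22.9, and 34.2 CPM in CL and 6.04, 24.3, and 59.2 CPM in UUO kidneys, so the groups overlapped, with the wider range in UUO kidneys. Psmc3ip, which is no subunit, had 17.9 ± 5.29 CPM in CL and 17.8 ± 8.86 CPM in UUO kidneys of IgG-treated mice (SD, n = 8 each) and passed in no kind of mouse, with 27.1% of its 50-base stretches shared with other genes.

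The constitutive catalytic genes passed the test for UUO against CL in PdgfbWT mice only, where Psmb6 and Psmb7 fell. Psmb5 stood at 131, 185, and 254 CPM (lowest, median, highest) in CL and 138, 196, and 290 CPM in UUO kidneys of IgG-treated mice, a response of 0.11 ± 0.19, and its responses lay between -0.08 and 0.42 in the 6 kinds of mice. Psmb6 had 263, 347, and 413 CPM in CL and 264, 336, and 420 CPM in UUO kidneys of IgG-treated mice, a response of -0.02 ± 0.17. Psmb7, whose product Psmb10 replaces, had 221, 263, and 336 CPM in CL and 194, 231, and 265 CPM in UUO kidneys, a response of -0.24 ± 0.15. All 3 overlapped between the kidneys and none passed the test in IgG-treated, ABTAA-treated, VeptpWT, VeptpiECKO, or labelled PdgfbiKO mice.

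The 19S regulatory particle changed in few members. Psmd10, which encodes gankyrin, a chaperone of base assembly, rose in IgG-treated mice from 44.4, 64.6, and 81.5 CPM (lowest, median, highest) in CL to 83.6, 103, and 157 CPM in UUO kidneys, without overlap (4.28% of all genes tested lay wholly above), by 0.76 ± 0.15. It rose in ABTAA-treated mice by 0.53 ± 0.15 and stood at 0.46, 0.67, 0.45, and 0.50 in VeptpWT, VeptpiECKO, PdgfbWT, and labelled PdgfbiKO mice, which did not pass. In plain names alone the response in ABTAA-treated mice was 0.48 and did not pass (edgeR adjusted p = 0.119). With the form as a covariate Psmd10 passed in VeptpWT (0.45) and VeptpiECKO (0.69) mice. The other assembly chaperones among the members, Psmd5 and Psmd9, did not pass the test in any kind of mouse, with responses between -0.38 and 0.01.

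Of the lid genes 2 passed the test. Psmd3, a lid gene, fell in VeptpWT mice by 0.49 ± 0.17 and in PdgfbWT mice by 0.54 ± 0.18, and its response was negative in the 4 other kinds of mice (-0.42 to -0.18) without passing. The VeptpWT call was lost on leaving out any 1 of 10 of the 15 VeptpWT libraries (CL replicates 1, 3, 4, and 6 and UUO replicates 3 to 8, -0.50 to -0.40). It was also lost without TMM factors (-0.34, edgeR adjusted p = 0.185), with DESeq2 (-0.43, adjusted p = 0.0646), with edgeR's exact test (-0.45, adjusted p = 0.115), without the filter on low counts (-0.51, edgeR adjusted p = 0.0818), and in plain names alone (-0.38, edgeR adjusted p = 0.291). It held with the form as a covariate (-0.49, edgeR adjusted p = 0.0082), with the replicate block (-0.46, edgeR adjusted p = 0.0208), and in low-line names alone (-0.52, edgeR adjusted p = 0.0469). Where the count of regulatory members called in VeptpWT mice was still 1, another member was called, Psmd8 with DESeq2 and Psmd10 without TMM factors. In VeptpiECKO mice the fall passed in low-line names alone (-0.58, edgeR adjusted p = 0.0289), and in IgG-treated mice it passed with the form as a covariate (-0.44, edgeR adjusted p = 0.0242). For PdgfbWT mice the call of Psmd3 was lost without CL replicate 4 or UUO replicate 1 or 2 (-0.52 to -0.49). Psmd8, another lid gene, rose by 0.67 ± 0.16 in libraries labelled PdgfbiKO, from 153, 108, 111, and 110 CPM in CL to 164, 194, 217, and 188 CPM in UUO kidneys. Its response of 0.32 in ABTAA-treated mice did not pass (edgeR adjusted p = 0.061), but it passed with DESeq2 (0.35, adjusted p = 0.0232), with the form as a covariate (0.32, edgeR adjusted p = 0.0391), and without TMM factors (0.45, edgeR adjusted p = 0.00794). In VeptpWT mice the response of Psmd8 was 0.43 and passed with DESeq2 (0.47, adjusted p = 0.036) and with the form as a covariate (0.45), and in PdgfbWT mice it passed without TMM factors (0.66). Psmd1 and Psmd14, a base and a lid gene, rose in IgG-treated mice in plain names alone (0.57 and 0.56, edgeR adjusted p = 0.0239 and 0.0281) and had -0.21 and -0.16 in low-line names alone. The ATPase genes Psmc1 to Psmc6 had responses between -0.17 and 0.18 in all 6 kinds of mice, and none passed the test in any of them.

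In ABTAA-treated mice the count of members that changed was the same as in IgG-treated mice for rises, with 6 (Psmb10, Psma5, Psme1, Psme2, Psme2b, and Psmd10) and no fall, where 12.7% of all genes rose and 12.5% fell. Psma5, an α-ring gene, rose by 0.34 ± 0.12 in IgG-treated and 0.50 ± 0.13 in ABTAA-treated mice. Its call in IgG-treated mice was lost without IgG CL replicate 2 or 8 or IgG UUO replicate 3, which left 1 core member that rose, and in low-line names alone (0.19, edgeR adjusted p = 0.398). Of its 50-base stretches 55.4% are shared with other annotated genes, so its counts are uncertain. Median responses were 0.15 for the core and 0.12 for the regulatory members, beside 0.003 over all genes.

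In VeptpWT mice 1 core member rose (Psmb10) and 1 regulatory member fell (Psmd3), where 10% of all genes rose and 8.38% fell, with medians of 0.05 and -0.01. The core median there ran from -0.06 without VeptpWT CL replicate 5 to 0.35 without VeptpWT CL replicate 3, and it was -0.04 in plain names alone, so its sign changed with the libraries kept. VeptpiECKO mice had a rise of Psmb10 only, where 4.47% of all genes rose and 3.47% fell. The other 14 core members also had responses above 0 there, with a median of 0.36 for the core and 0.15 for the regulatory members, but the next core responses, 0.48 for Psma5 and 0.46 for Psmb1, did not pass. VeptpiECKO CL holds 2 plain libraries of 6 and VeptpiECKO UUO 4 of 8. In plain names alone 7 of the 15 core members were below 0 and the core median was 0.07, and it was 0.27 both with the form as a covariate and in low-line names alone, where 1 core member, Psmb7 (-0.12 and -0.11), was below 0. Leaving out 1 library gave core medians from 0.19 without VeptpiECKO UUO replicate 3 to 0.58 without VeptpiECKO CL replicate 2. Psmb2, a β-ring gene, rose in low-line names alone (0.58, edgeR adjusted p = 0.0224) and had -0.03 in plain names alone. Counts of regulatory members depended on how the form was treated. With the form as a covariate Psmd8, Psmd10, Psme1, Psme2, and Psme2b rose in both kinds of mice, where 16.6% of all genes rose and 17.3% fell in VeptpWT and 10.7% and 10.8% did in VeptpiECKO mice. In low-line names alone 4 of the 27 rose and 1 fell in each, where 13.4% of all genes rose and 12.3% fell in VeptpWT and 10.1% and 11.2% did in VeptpiECKO mice. In plain names alone 0 regulatory members passed in either by edgeR, where 7.32% of all genes rose and 6.69% fell in VeptpWT mice and 0% did in VeptpiECKO mice. Calls of all genes thus moved with the way the form was treated, as calls of the members did.

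In PdgfbWT mice 5 members of the constitutive core fell, beside the rise of Psmb10, where 17.9% of all genes rose and 19.4% fell. Psmb3 fell by 0.58 ± 0.14, Psmb7 by 0.48 ± 0.12, Psmb6 by 0.38 ± 0.12, Psma3 by 0.37 ± 0.12, and Psma2 by 0.34 ± 0.12, and Psmd3 and Psme4 of the regulatory particles fell too, while Psme1, Psme2, and Psme2b rose. For Psmb7 the 4 CL libraries had 345, 280, 329, and 267 CPM and the 4 UUO libraries 237, 188, 218, and 232 CPM, without overlap. Psmb6 had 384, 432, 400, and 390 CPM in CL and 359, 285, 275, and 316 CPM in UUO libraries, again without overlap, while for Psmb3 the lowest CL library (256 CPM) lay below the highest UUO library (261 CPM). In PdgfbWT mice every UUO library lay below every CL library for 6 members and 17.3% of all genes tested. The median response was -0.08 for the core and 0.06 for the regulatory members, beside 0.04 over all genes.

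These falls depended on the scaling. Without TMM factors the median of all genes in this comparison moved by 0.40 on the log2 scale, none of the 5 core falls, Psmd3, or Psme4 passed the test, with Psma2 turned to 0.02, and 5 core and 15 regulatory members rose with none falling, where 39.7% of all genes rose and 10.7% fell, so the core median turned from -0.08 to 0.28. Across all genes called the share that rose went from 48.0% to 78.8%. With DESeq2, whose size factors serve the same purpose as TMM, the counts were again 1 core member higher and 5 lower. In the same libraries the rRNA-like transcripts Gm42418 and AY036118 made up 8.04% of the counts in CL and 6.39% in UUO kidneys, genes with transcripts under 1000 bases took 14.9% and 12.1%, and summed kidney markers were 10740 and 3819 CPM. The part of these values in the core falls was not tested.

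In mice labelled PdgfbiKO 2 core members (Psmb10 and Psmb4) and 3 regulatory members (Psme1, Psme2, and Psmd8) rose and none fell, where 3.94% of all genes rose and 2.4% fell, with medians of 0.11 and 0.14. Psmb4, a β-ring gene, had 153, 133, 150, and 135 CPM in CL and 194, 186, 188, and 182 CPM in UUO kidneys, a rise of 0.39 ± 0.12 that lost its call without any 1 of 13 of the 16 libraries of the arm, which left 1 core member. Without CL replicate 1 the number of regulatory members that rose was 5.

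**Figure D3:**
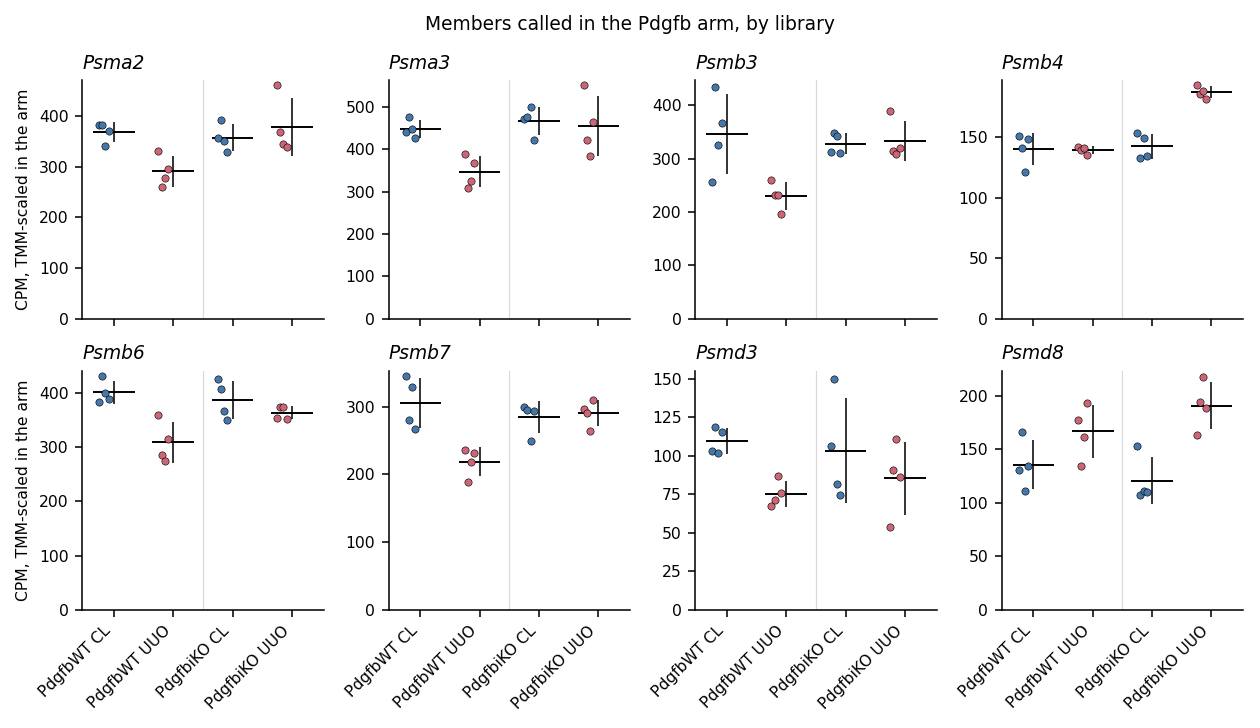
Levels of 8 members that differed in a comparison of the Pdgfb arm (vertical axes, CPM, TMM-scaled within the arm) in the 4 libraries of each group (horizontal axis), blue for CL and red for UUO, with the mean and ± 1 SD as bars; the groups named PdgfbiKO are the libraries labelled so. Psma2, Psma3, Psmb3, Psmb6, and Psmb7 are lower in PdgfbWT UUO than in PdgfbWT CL kidneys, and Psmb4 is highest in the UUO libraries labelled PdgfbiKO, at 182 to 194 CPM.

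Between UUO kidneys, libraries labelled PdgfbiKO were higher than PdgfbWT in 5 core members and no regulatory member, where 12% of all genes were higher and 6.58% lower. The 5 were Psmb3 (0.52 ± 0.14), Psmb4 (0.42 ± 0.11), Psmb7 (0.41 ± 0.12), Psma3 (0.38 ± 0.13), and Psma2 (0.36 ± 0.12). The PdgfbWT UUO libraries enter both this comparison and the response of PdgfbWT mice, so the values are not independent. For Psma2 the 4 libraries labelled PdgfbiKO had 460, 369, 344, and 339 CPM and the 4 PdgfbWT libraries 332, 261, 277, and 295 CPM. The summed core level was 3583 ± 286 CPM in PdgfbWT UUO and 4350 ± 193 CPM in labelled PdgfbiKO UUO kidneys (SD, n = 4 each), and 4070 ± 188 and 4010 ± 238 CPM in the CL kidneys, while the summed regulatory level was 4044 ± 200 and 4184 ± 303 CPM in the UUO kidneys.

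The number called fell to 2 without PdgfbWT UUO replicate 2 and to 3 without PdgfbWT UUO replicate 3 or replicate 1 or 4 of those labelled PdgfbiKO. Calls of Psma2 and Psma3 were lost on leaving out any 1 of 5 and 4 libraries, and the call of Psmb7 without PdgfbWT UUO replicate 2 or replicate 4 of those labelled PdgfbiKO. Without TMM factors none of the 5 passed, with values of 0.08 to 0.24, and Psmb10 (-0.77) and Psmd2 (-0.39) were lower instead, where 6.11% of all genes were higher and 21.8% lower, so that the core median moved from 0.25 to -0.02. DESeq2 gave 6 higher, with Psma7 added. The same kidneys differed in summed kidney markers (3819 CPM in PdgfbWT and 7325 CPM in those labelled PdgfbiKO), leukocyte markers (551 and 351 CPM), and transcripts under 1000 bases (12.1% and 15.4% of counts). All 4 fibroblast markers were lower in those labelled PdgfbiKO (median -0.97), and the 2 rRNA-like transcripts were higher (median 0.80). The part of these values in the core difference was not tested.

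The difference between the 2 responses itself passed for no member, where 6.66% of all genes responded more and 1.9% less in libraries labelled PdgfbiKO. At an unadjusted p under 0.05, 5 core and 0 regulatory members of the 42 differed by edgeR, where 21.7% of all genes did, led by Psmb3 (0.60 ± 0.20) and Psmb7 (0.51 ± 0.18), with edgeR adjusted p of 0.066 and 0.0728, and DESeq2 called Psmb3 alone (0.59). Without PdgfbWT CL replicate 1 edgeR called 1 member. In CL kidneys no member differed between libraries labelled PdgfbiKO and PdgfbWT (background 0%), with 1 member, Psmf1, and 3.46% of all genes at an unadjusted p under 0.05, and 0 members by DESeq2 or edgeR's exact test.

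No member passed the test for ABTAA against IgG or for VeptpiECKO against VeptpWT. In each of the 6 comparisons (ABTAA against IgG in UUO, in CL, and in the response, and VeptpiECKO against VeptpWT in the same 3) the quasi-likelihood test called 0 of 42 members and 0% of all genes, and DESeq2 called 0 members, as did edgeR's exact test in the 4 comparisons it can make. In this fit, which has no term for the form of the name, an unadjusted p under 0.05 was reached by 0 members, and by 3.59%, 3.25%, and 3.37% of all genes for ABTAA against IgG in UUO, CL, and the response and by 3.56%, 1.92%, and 2.72% for VeptpiECKO against VeptpWT. Differences in UUO kidneys ran from -0.30 to 0.38 between ABTAA and IgG and from -0.17 to 0.31 between VeptpiECKO and VeptpWT. The latter differed in sign between the forms of the name. In low-line names alone all 15 core members were higher in VeptpiECKO UUO kidneys, from 0.24 for Psma5 to 0.79 for Psmb10, and in plain names alone 9 of 15 were lower, from -0.59 for Psmb2 to 0.27 for Psmb1, with Psmb10 at -0.24. No member passed the test in either form. An unadjusted p under 0.05 by edgeR was reached by 8 of 42 members, 5 of them core, in low-line names alone, where 6.11% of all genes reached it. In plain names alone 1 member and 10.57% of all genes did. With the form as a covariate all 15 core members were above 0, and 3 of them and 8.74% of all genes reached it, with no member called. Of the numbers in the low-line names of the Veptp arm, 4 carry opposite genotypes in the CL and the UUO kidney. With the UUO genotypes taken from the CL library of the same number, an alternative chosen after seeing the data, Psmb10 was the only member called, at 1.56 in VeptpWT and 1.71 in VeptpiECKO mice.

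The form of the library name went with differences in most core members. Among Veptp libraries all 15 core members tested were lower in low-line libraries, as were 21 of 27 regulatory members, while 3 regulatory members were higher, where 34% of all genes were higher and 28.4% lower. The median difference was -1.09 for the core and -0.39 for the regulatory members. In the ABTAA arm 9 core and 6 regulatory members were lower and 2 regulatory members higher, where 20.6% of all genes were higher and 19.8% lower, with medians of -0.27 and -0.09.

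**Figure D4:**
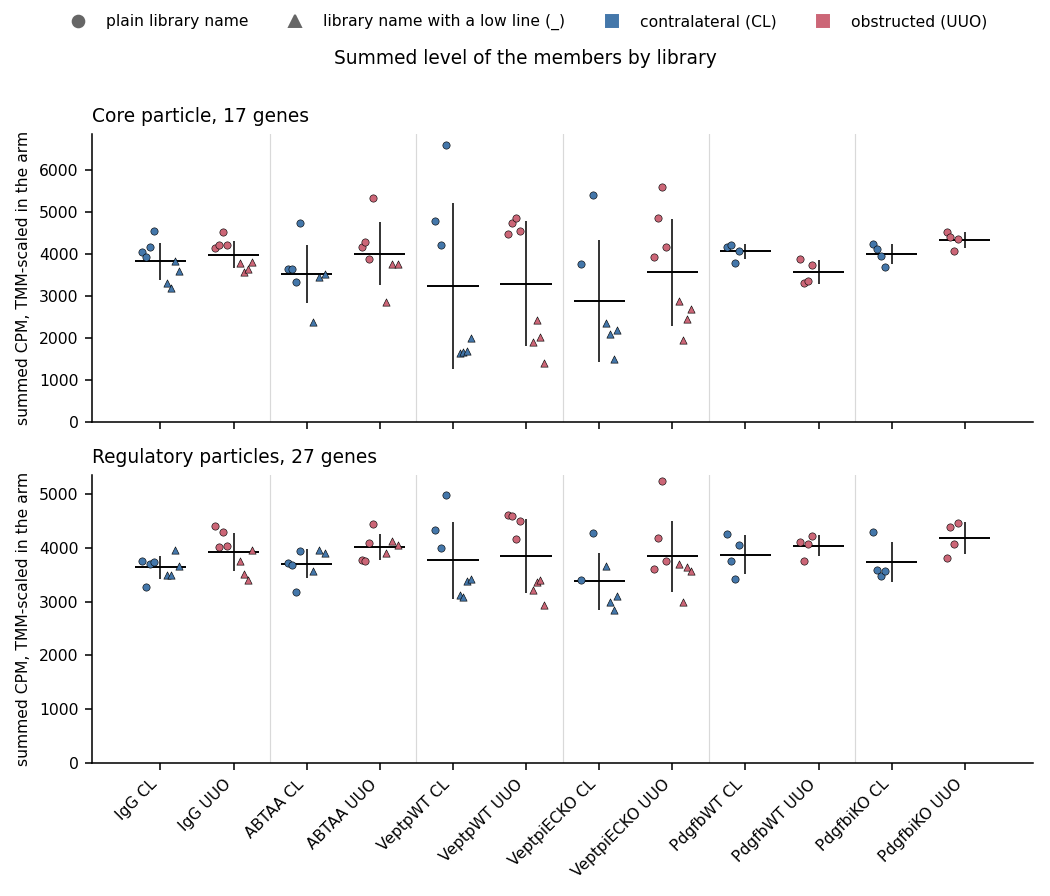
Summed levels of the 17 core genes and of the 27 regulatory genes (vertical axes, CPM, TMM-scaled within the arm) in each of the 75 libraries by group (horizontal axis), with circles for plain and triangles for low-line names, blue for CL and red for UUO, a horizontal bar at the mean and a vertical bar of ± 1 SD. In the Veptp arm the low-line libraries sum to 1403 to 2888 CPM for the core, below every plain library (3765 to 6602 CPM), and the forms lie closer together for the regulatory genes.

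The ratio of the summed core to the summed regulatory level set the forms apart in the Veptp arm, at 0.973 to 1.32 in the 13 plain and 0.477 to 0.780 in the 16 low-line libraries, without overlap. In the ABTAA arm it was 1.085 ± 0.092 (SD, n = 16) and 0.922 ± 0.108 (n = 14). Psmb5, the gene of the chymotrypsin-like site, had the largest difference in the Veptp arm, -1.88 ± 0.15, with 171 to 532 CPM in plain and 35.0 to 140 CPM in low-line libraries, although 57.1% of its 50-base stretches are shared with other genes. Psmb6, which shares 1.7%, differed by -1.59 ± 0.11, with 308 to 667 CPM in plain and 107 to 205 CPM in low-line libraries. In the ABTAA arm these genes differed by -0.59 and -0.56, and Psmb4 had the largest difference there, -0.97 ± 0.09.

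Regulatory members went both ways. The 11S genes Psme1 and Psme2 differed by -1.37 ± 0.11 and -1.43 ± 0.10 (low-line minus plain) in the Veptp arm and by -0.35 and -0.41 in the ABTAA arm. Psmd5 was higher in low-line libraries of the Veptp arm by 1.399 ± 0.131, with 92.6 to 167 CPM against 29.2 to 72.9 CPM in plain ones, and Psmf1 by 1.04 ± 0.14 and Psmc4 by 0.44 ± 0.11 were the others. In the ABTAA arm Psmd2 (0.32 ± 0.08) and Psmc4 (0.29 ± 0.10) were higher. Psme4 was lower in the Veptp arm (-0.99 ± 0.10), while its difference in the ABTAA arm (0.15) did not pass the test.

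Transcript length and rRNA-like reads moved with the form. The longest annotated transcripts (GENCODE M21) have a median of 1239 bases for the core, 1986 for the regulatory members, and 3331.5 for all genes tested in the Veptp arm. Genes under 1000 bases differed between the forms by a median of -1.17 in the Veptp and -0.53 in the ABTAA arm, and genes of 2000 to 3000 bases by 0.27 and 0.06. Core members of 2000 to 3000 bases (Psma2, Psma3, and Psmb7) nonetheless had a median of -1.36 in the Veptp arm. Gm42418 and AY036118 took 12.6% of the counts in plain and 0.552% in low-line libraries of the Veptp arm, and 11.6% and 4.93% in the ABTAA arm. What part length, rRNA-like reads, or depth have in the difference was not tested.

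**Figure D5:**
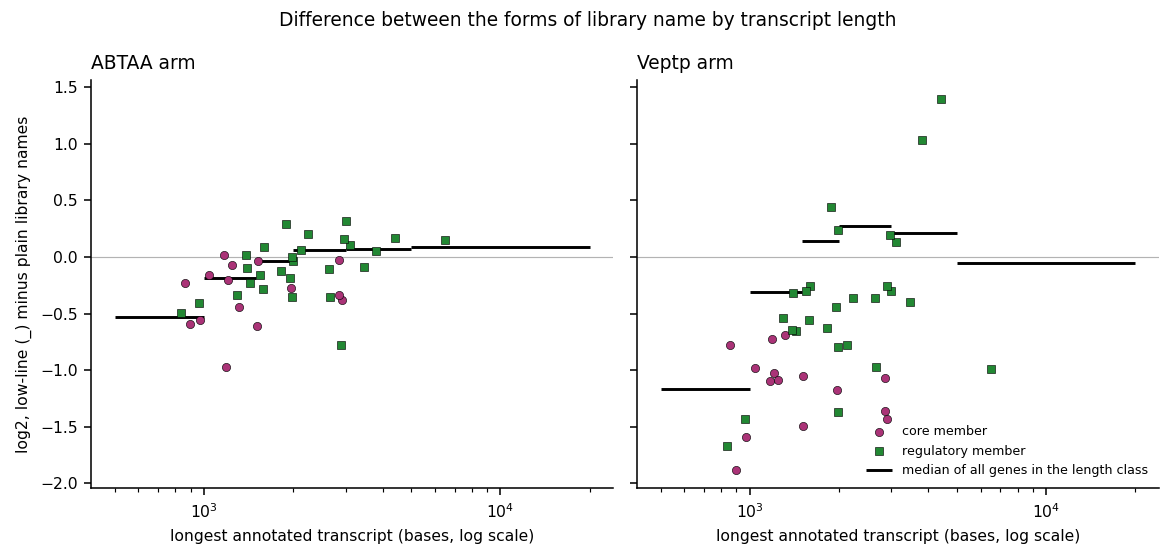
Each point is 1 member, plotted by the length of its longest annotated transcript (horizontal axis, bases, log scale) and by its log2 difference between low-line and plain library names (vertical axis) in the ABTAA arm (left) and the Veptp arm (right), with black bars at the median of all genes in each length class. In the Veptp arm all core members but Psmb2 lie below the bar of their length class, for example at a median of -1.18 for the 3 core members of 1500 to 2000 bases, where all genes had 0.138.

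The response to UUO itself did not pass the test for a difference between the forms in any member. In the Veptp arm 0.101% of all genes responded more and 0.269% less in low-line libraries, and in the ABTAA arm 0% did. At an unadjusted p under 0.05 by edgeR there were 4 and 7 of 42 members, where 9.39% and 9.33% of all genes reached it, with Psmb10 at 0.75 ± 0.24 in the ABTAA arm (edgeR adjusted p = 0.26). This comparison was not run with DESeq2.

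Other genes of the ubiquitin system gave few calls in IgG-treated mice. Of 5 proteasome-associated enzymes 1 rose, Uba6 (0.90 ± 0.27), an activating enzyme of ubiquitin. Of 4 regulators of proteasome transcription 1 fell, Ngly1 (-0.50 ± 0.18), the glycanase that activates NFE2L1, while Nfe2l1 (0.08) and Nfe2l2 (0.20) did not pass. Of the 4 ubiquitin genes 1 rose, Rps27a (0.47 ± 0.15), which encodes ubiquitin fused to a ribosomal protein. None of the 2 other 19S subunits (Adrm1 and Sem1), 5 ubiquitin shuttles, 3 genes of the p97 unfoldase, or 4 assembly factors tested passed. ABTAA-treated mice had rises of Rps27a (0.45) and the assembly factor Psmg4 (0.76), PdgfbWT mice rises of Usp14 (0.54) and Nfe2l2 (0.41), VeptpWT mice a fall of Ngly1 (-0.43), and VeptpiECKO and labelled PdgfbiKO mice no call on these lists.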

How the data were processed

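RNA of whole kidneys was sequenced as 75 libraries with unique molecular identifiers. The authors merged 4 wells per sample, aligned the reads with STAR 2.7.3a to mm10, removed duplicates with UMI-tools 1.1.4, and counted reads per gene with featureCounts (Subread 1.4.6-p5), and deposited raw counts. For the annotation release and strand setting the sources used here give nothing. Genes that overlap on the opposite strand (such as Psmb7 and Nek6, or Psmc3ip and Mlx) or share sequence are therefore uncertain.

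Groups followed the labels, and every library was used. The members and gene lists were chosen with earlier results of these data known. Named members were those with a catalytic site (Psmb5, Psmb6, Psmb7, and Psmb10), the Psme genes and Psmf1, Psmc3ip and members under 20 counts, the 3 called members with the largest rise and fall in each UUO against CL comparison, and up to 5 called members with the lowest adjusted p elsewhere. Other members called in UUO against CL, such as Psma5, Psmd10, Psma2, Psma3, and Psmb4, those given for the form (Psmc4, Psmd2, and Psmd5), and those called under other settings (such as Psmb2, Psmd1, and Psmd14) were named after their values were seen. From each pathway list up to 4 called genes were named. Some genes of the lists are not reported here.

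Counts were fitted per arm over its 4 groups with edgeR 4.0.16 (R 4.3.3, limma 3.58.1; TMM factors, filterByExpr by group, quasi-likelihood test), with 9579, 11916, and 10923 genes tested in the ABTAA, Veptp, and Pdgfb arms, Benjamini-Hochberg adjustment over these, and a threshold of 0.05. The study's own test, edgeR's exact test, was an alternative, as were DESeq2 1.42.0, no TMM factors, no filter, the form of the library name as covariate or within each form, a replicate block, and leaving out each of the 75 libraries. All p-values measure the spread between kidneys, as 1 library stands for 1 kidney. The paper uses the contralateral kidney as an internal control. The main fit has no term for the mouse, so kidneys of the same mouse enter the UUO against CL tests as if independent. The fits were tested on simulated counts with 200 changed genes per arm. Summaries used Python 3.11.15 (pandas 2.3.3). CPM are counts over the library total times its TMM factor. Lengths, overlaps, and shared stretches of 50 bases came from GENCODE M21 (GRCm38, the build of mm10). Depth limits low genes most, since a library of 172827 counts holds few counts of Psmf1 or Psme2b.

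In the ABTAA arm the low-line names of ABTAA-treated mice carry numbers shared by CL and UUO kidneys, and those of IgG-treated mice do not. Deviations from the group means correlated between kidneys of the same number by 0.387, 0.2, and 0.16 for 9, 11, and 12, and by -0.122 on average between different numbers. Numbers 9, 11, and 12 were taken as pairs in the replicate block only, not in the main fit.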

Additional observations from a re-analysis of the deposited data

Results flagged for a closer look

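In 12 of 240 groups of values (18 genes and 2 sums by group) 1 library stood apart from the rest of its group by Dixon's test, and chance gives about 1 in 20. Explanations were not tested.

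Among the ABTAA arm, Psmd3 was 159.3 CPM in IgG CL replicate 1, with the next value at 102.1 CPM. Psmd8 was 190.6 CPM in ABTAA CL replicate 4, with 136.0 CPM next. IgG UUO replicate 5 had the highest Psmf1 (59.21 CPM, next 29.19) and the highest Psme2b (52.25 CPM, next 38.33). Psme2 was 138.4 CPM in ABTAA UUO replicate 5, with the next lowest at 194.4 CPM. Psma3 was 684.0 CPM in ABTAA UUO replicate 4, with 483.7 CPM next. In the Veptp arm Psme3 was 135.5 CPM in VeptpiECKO CL replicate 2, against 57.62 CPM for the next library.

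The other 5 lay in libraries labelled PdgfbiKO. CL replicate 1 had the highest summed regulatory level (4303 CPM, next 3596) and the highest Psmd8 (153.4 CPM, next 111.1). Psmb7 was lowest in CL replicate 3 (249.5 CPM, next 294.1), and Psme3 was lowest in CL replicate 2 (40.01 CPM, next 73.77). Psmb3 was highest in UUO replicate 1 (390.3 CPM, next 319.5), the shallowest library of the arm.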

How the results depend on the processing

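Of the members named with a call, 1 reversed: Psma2 in PdgfbWT mice was 0.02 without TMM factors. These members gave 63 results, and of 307 values under other settings 48 lost their call, as did 61 of 1579 on leaving out 1 library. Among medians, that of the core in PdgfbWT mice turned to 0.28 without TMM factors, that of the core in VeptpWT mice to -0.04 in plain names alone, and that of the regulatory members in IgG-treated mice to -0.05 in low-line names alone (0.29 in plain names alone), and the regulatory median in VeptpWT mice changed sign under 5 settings (highest 0.14, plain names alone). Leaving out 1 library, core medians were 0.03 to 0.10 in IgG-treated, 0.07 to 0.23 in ABTAA-treated, -0.06 to 0.35 in VeptpWT, 0.19 to 0.58 in VeptpiECKO, -0.16 to -0.06 in PdgfbWT, and 0.06 to 0.23 in labelled PdgfbiKO mice (highest without CL replicate 1), and regulatory medians -0.09 to 0.06 in VeptpWT, 0.02 to 0.14 in PdgfbWT (highest without CL replicate 1), and 0.05 to 0.23 in the other 4. Counts of members called are given as the total in both directions. Without TMM factors they were 5 core and 8 regulatory in IgG-treated mice (none lower), 7 regulatory in ABTAA-treated, 3 regulatory in VeptpiECKO, and 15 regulatory in PdgfbWT mice, 2 between UUO kidneys labelled PdgfbiKO and PdgfbWT, 5 core for the form in the ABTAA arm, and 13 regulatory for the form in the Veptp arm. Without the filter on low counts they were 1 core in IgG-treated, 1 core and 2 regulatory in ABTAA-treated, 0 regulatory in VeptpWT, 1 regulatory in VeptpiECKO, 3 core in PdgfbWT, 1 core in labelled PdgfbiKO mice, and 1 between the UUO kidneys of the Pdgfb arm. DESeq2 gave 2 regulatory in VeptpiECKO mice, 1 core in mice labelled PdgfbiKO, and 1 for the difference of their responses; the exact test gave 0 regulatory in VeptpWT, 1 in VeptpiECKO, and 1 core in mice labelled PdgfbiKO. With the form as covariate 6 regulatory were called in VeptpWT and 5 in VeptpiECKO mice. Low-line names alone gave 1 core in IgG-treated, 5 regulatory in VeptpWT, and 2 core and 5 regulatory in VeptpiECKO mice, and plain names alone gave 2 regulatory in ABTAA-treated, 0 regulatory in VeptpWT, and 0 core in VeptpiECKO mice. Taking UUO genotypes from the CL library of the same number, chosen after seeing the data, gave 0 regulatory in VeptpWT mice. The replicate block gave 6 regulatory in VeptpWT and 2 core (Psmb10 and Psma5, the latter at 0.42 with an edgeR adjusted p of 0.0427) and 4 regulatory in VeptpiECKO mice, and it changed no count of members in the ABTAA arm. Same-numbered Veptp kidneys correlated by 0.058 to 0.426, over 0.1 for 7 of 8 numbers and by -0.033 on average between different numbers, and 10 of 16 libraries correlated best with their own number, which as a hint from the data leans toward pairing. Number 5 was below 0.1, and 4 numbers carry opposite genotypes, and the numbers were therefore not used as pairs in the main fit. The replicate block above did use them, so its Veptp calls rest on blocks of which 4 join kidneys of opposite genotype. Leaving out 1 library gave 1 to 2 core in IgG-treated, 0 to 2 regulatory in VeptpWT, 0 to 1 regulatory in VeptpiECKO, 1 to 2 core and 2 to 5 regulatory in labelled PdgfbiKO mice, 2 to 5 between UUO kidneys of the Pdgfb arm, and 0 to 1 for the difference of responses there. The cause of these changes was not tested. Low counts limit Psme2b and Psmf1 most.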
